A study of Mus musculus with 6 samples.

Results

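The genes described here code for the receptors through which GABA and glycine inhibit retinal neurons, the proteins that hold those receptors at the synapse, and a pair of cotransporters that set the chloride level of the cell. They were chosen by name, 27 genes, taking every probe whose single symbol in the array annotation is one of them and letting the brightest probe stand for its gene. Of these genes 25 had a probe, 49 probes among the 45281 of the array. Expression of Gabra2 and Gabre was not analysed here. After a filter that removed probes near background, 19 members were tested among 12046 genes.

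The RNA came from central retina of rd1/rd1 mice, 3 samples at 2 months and 3 samples at 8 months of age, hybridised to single-colour Illumina bead arrays. Both ages are homozygous for rd1, the mutation of the rod phosphodiesterase gene Pde6b that kills rods and later cones, so both describe a retina after rod loss, and no wild-type retina was compared and no treatment given. A sample held 3 to 6 biopsy punches with a diameter of 1.5 mm. The labels state that the samples were independent but not how many animals a sample held. The p-values therefore measure variation among samples as pooled. The sample descriptions number the samples titled 2 month replicates 1 and 2 alike, and they are treated as separate samples here, as titled. If they were 1 biological replicate, n would be 2 at 2 months, and the SEs and p-values below would not hold. The comparison asked what differs between these ages in the degenerating retina. Without wild-type retina of either age, later degeneration and ageing cannot be told apart. Every change below is the log2 value at 8 months minus that at 2 months.

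GABA-A receptors are chloride channels assembled from several kinds of subunit, and in the retina those made of rho subunits carry slow, sustained inhibition at bipolar cell terminals. GABA-B receptors act through G proteins. Glycine receptors are chloride channels of alpha and beta subunits, and gephyrin, the product of Gphn, anchors them and many GABA-A receptors. Whether opening such a channel inhibits depends on the chloride gradient: the product of Slc12a2 (NKCC1) brings chloride into the cell and that of Slc12a5 (KCC2) takes it out.

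The samples held the inner retina in which these genes work, on a scale where the median of each array was 7.19. Grm6, the glutamate receptor of ON bipolar cells, averaged 12.47 and 12.41 at 2 and 8 months. Tested amacrine markers (9 of 10 listed) averaged 10.90 to 10.97 at the younger age and 11.05 to 11.15 at the older, and bipolar markers (8 of 10) 11.74 to 11.80 at the younger age and 11.67 to 11.73 at the older. Horizontal cell markers (4 of 8) averaged 10.05 to 10.08 at the younger age and 9.94 to 9.99 at the older. Of these genes Lhx1 and Onecut2 had changes of −0.44 and −0.12, and Prox1 and Tfap2b of 0.020 and 0.14. Tfap2b is also in the amacrine list. Cone markers (9 of 10) averaged 9.54 to 10.00 at the younger age and 8.05 to 8.78 at the older, and rod markers (7 of 10) 8.42 to 8.77 at the younger age and 8.05 to 8.26 at the older. The rod genes did not move together, with 3 positive and 4 negative changes. The lower rod mean came mainly from Sag (−1.81) and Pde6g (−1.35). Gnat1, Nrl and Cnga1 had changes of 0.15, 0.13 and 0.0038, and Rom1 and Pde6a of −0.084 and −0.16. Other tissue was present: pigment epithelium markers (10 of 10) averaged 10.29 to 10.94 at the younger age and 9.52 to 10.24 at the older, red blood cell markers (4 of 9) 9.81 to 10.89 at the younger age and 8.95 to 9.00 at the older, and skeletal muscle markers (7 of 10) 7.97 to 9.20 at the younger age and 7.90 to 8.04 at the older. All of these other-tissue lists were highest in 2 month replicate 2. The skeletal muscle mean was lifted by Pvalb, which averaged 11.63 at 2 months and 11.44 at 8 months. At 8 months Acta1 averaged 7.83, and Myl1, Mb, Mylpf, Actn3 and Tnnc2 averaged 7.22 to 7.38, near the array median. The list mean therefore shows little muscle RNA at the older age. In 2 month replicate 3 Myl1, Mb, Mylpf and Tnnc2 were also near the array median, at 7.31, 7.26, 7.36 and 7.19. Myl1 read 9.32 and 11.14 in 2 month replicates 1 and 2, so the younger samples differed among themselves. Xist, made from an inactive X, read 9.40, 8.73 and 11.10 at 2 months and 10.76, 10.48 and 11.08 at 8 months.

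None of the members passed the test. With limma and Benjamini-Hochberg adjustment over all tested genes, 0 of 19 members were higher and 0 lower at an adjusted p below 0.05, where 0.224% of all tested genes passed (0.158% higher, 0.0664% lower). The smallest adjusted p of a member was 0.341, for Gabbr1. An unadjusted p below 0.05 was reached by 4 members, Gabra3, Gabrd and Gabbr1 with positive changes and Glra1 with a negative one, beside 10.4% of all tested genes. The ages did not overlap for 3 members, the same Gabra3, Gabrd and Gabbr1, all higher at 8 months. Over all tested genes this held for 15.0% (7.45% higher, 7.59% lower), beside 15.8% of the tested members in either direction. Changes ran from −0.27 to 0.22, 12 positive and 7 negative. Their median was 0.048, and that of all tested genes 0.00048. The median size of a change was 0.064 among members and 0.056 among all tested genes. In these bulk samples, fewer cells of a type and less RNA per cell cannot be told apart.

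**Figure D1:**
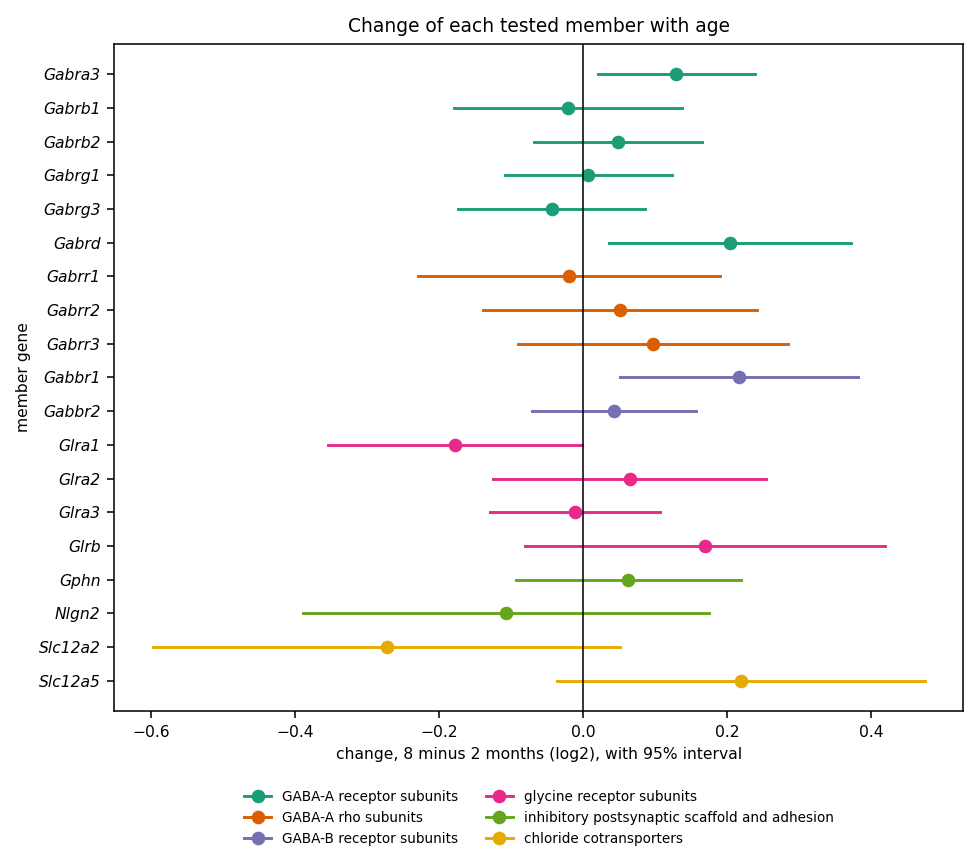
Change of each of the 19 tested members, 8 minus 2 months on the log2 scale (horizontal axis), with limma's 95% interval and 1 row per gene, coloured by role. The intervals of Gabra3, Gabrd, Gabbr1 and Glra1 lie to 1 side of 0, and none of these genes passed the adjusted threshold.

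Of 13 classical GABA-A subunit genes, 11 had a probe and 6 were tested. Gabra3, for the alpha3 subunit, read 8.01, 7.98 and 8.00 at 2 months and 8.08, 8.16 and 8.14 at 8 months. All older samples lay above all younger ones, by a small step. The change was 0.13 (SE 0.0465, 95% interval 0.020 to 0.24, 1.09-fold), with an adjusted p of 0.396 by limma. Gabra3 is X-linked, and with the Xist level as a covariate its change was 0.12.

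Gabrd codes for the delta subunit, which sits outside synapses and carries tonic inhibition. Its brighter probe read 8.80, 8.75 and 8.99 at 2 months and 9.02, 9.10 and 9.03 at 8 months. The 2 month replicate 3 came close to the older group without reaching it. The change was 0.20 (SE 0.0718, 95% interval 0.035 to 0.37, 1.15-fold), with an adjusted p of 0.383 by limma. The other probe read 8.80, 8.59 and 8.59, then 8.70, 8.63 and 8.75. There the ages overlapped, and the change was 0.035. With the mean red blood cell marker level (haemoglobin level) as a covariate the change of the brighter probe was 0.010, and with Xist 0.11. The red blood cell level itself did not overlap between ages, so that its part and that of age cannot be told apart in such a fit.

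The other tested subunits of this class had changes near 0. Gabrb1, for beta1, read 8.15, 8.26 and 8.23 at 2 months and 8.19, 8.08 and 8.30 at 8 months at its brighter probe. The older samples spanned the younger ones, with a change of −0.021 (SE 0.0674), while the dimmer probe had a change of 0.15, also with overlap. Gabrb2, for beta2, was at 7.43 ± 0.0593 and 7.48 ± 0.0120 (SD, n = 3 at each age), with a 95% interval of −0.068 to 0.16 for the change. Gabrg1, for gamma1, was at 7.44 ± 0.0457 and 7.45 ± 0.0378, with an interval of −0.11 to 0.12. Gabrg3, for gamma3, was at 7.30 ± 0.0698 and 7.26 ± 0.0452, with an interval of −0.17 to 0.086. These 3 genes lie near the array median, where differences can be compressed.

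Gabra4, Gabra5, Gabra6, Gabrq and Gabrp, and the glycine receptor gene Glra4, had no probe that passed the filter. Their brightest probes lay between 7.07 and 7.25 in all samples, around the array median. Differences between ages ran from −0.046 to 0.011. These probes stayed too low for the filter, which does not show that the transcripts are absent. No measure of background was used here.

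**Figure D2:**
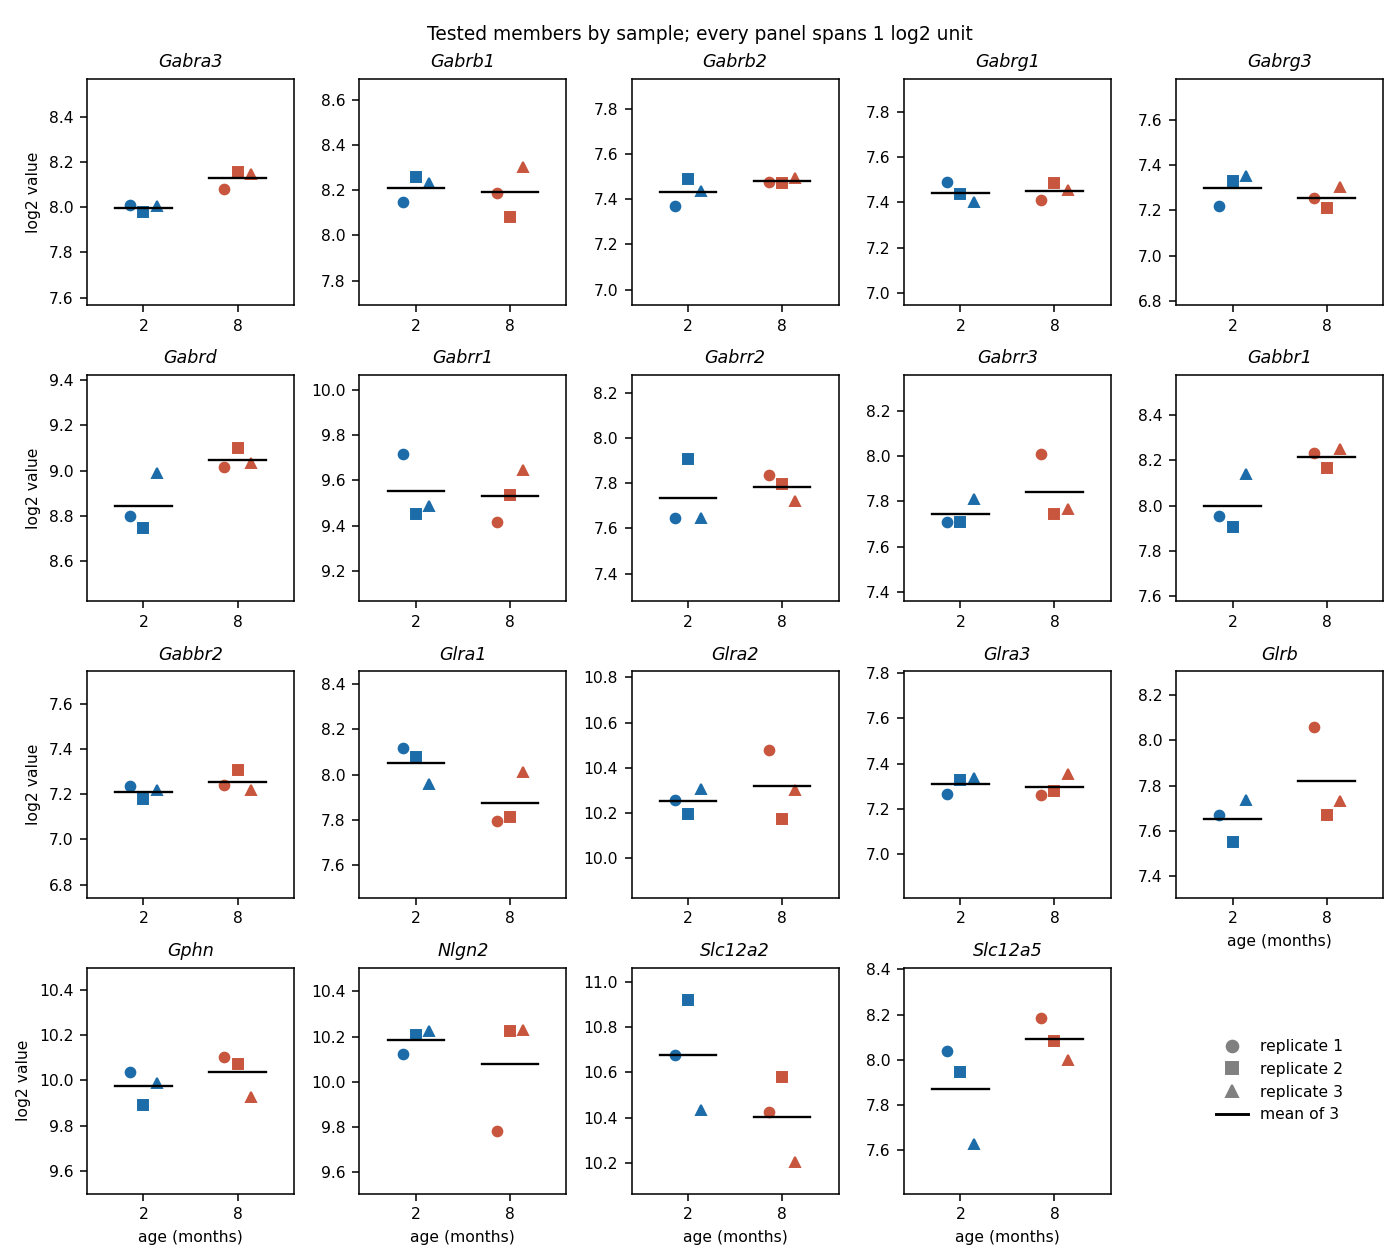
Log2 value of each tested member (vertical axis, 1 log2 unit in every panel) against age in months, with 1 symbol per replicate and a line at the mean of 3 samples. Gabra3, Gabrd and Gabbr1 show no overlap between ages, and 8 month replicate 1 stands apart in Nlgn2, Glrb and Gabrr3.

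All 3 rho subunit genes were tested. Gabrr1, for rho1, read 9.72, 9.45 and 9.49 at 2 months and 9.42, 9.54 and 9.64 at 8 months at its brighter probe. The ages overlapped, with a change of −0.020 (SE 0.0893, 95% interval −0.23 to 0.19). The dimmer probe read 9.01, 9.01 and 8.70, then 9.03, 9.10 and 9.14. In that probe 2 month replicate 3 was low, the ages did not overlap, and the change was 0.19. The mean of both probes gave 0.084 (adjusted p = 0.795 by limma).

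Gabrr2, for rho2 and next to Gabrr1 on chromosome 4, read 7.65, 7.91 and 7.65, then 7.84, 7.79 and 7.72. Its highest sample was 2 month replicate 2, and the change of 0.050 (SE 0.0811) was 0.14 without it. Gabrr3, for rho3, read 7.71, 7.71 and 7.81, then 8.01, 7.74 and 7.77. Its highest sample was 8 month replicate 1, and the change of 0.097 (SE 0.0799) was 0.012 without it. The adjusted p-values of Gabrr1, Gabrr2 and Gabrr3 were 0.973, 0.906 and 0.773 by limma.

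A GABA-B receptor pairs the product of Gabbr1, which binds GABA, with that of Gabbr2, which couples to the G protein. Gabbr1 read 7.95, 7.90 and 8.14 at 2 months and 8.23, 8.16 and 8.25 at 8 months. The older samples lay above the younger ones, with 2 month replicate 3 nearest to them, as in Gabrd. The change was 0.22 (SE 0.0706, 95% interval 0.051 to 0.38, 1.16-fold), with an adjusted p of 0.341 by limma. It was 0.29 without 2 month replicate 3 (adjusted p = 0.136 by limma). With haemoglobin and Xist as covariates it was 0.028 and 0.11. Gabbr2 lay near the array median at 7.21 ± 0.0290 and 7.25 ± 0.0464 (SD, n = 3), with a change of 0.042 (95% interval −0.071 to 0.16).

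Of 5 glycine receptor genes, 4 were tested. Glra1, for the alpha1 subunit, read 8.12, 8.08 and 7.96 at 2 months and 7.80, 7.81 and 8.01 at 8 months. A pair of older samples lay below all others, while 8 month replicate 3 lay within the younger range. The change was −0.18 (SE 0.0751, 95% interval −0.35 to −0.0021), with an adjusted p of 0.471 by limma, and −0.25 to −0.14 when any 1 sample was left out. Glra2, for the alpha2 subunit, read 10.26, 10.20 and 10.31, then 10.48, 10.18 and 10.30. The ages overlapped, and the change of 0.064 (SE 0.0811) was −0.016 without 8 month replicate 1, its highest sample. Glra2 is X-linked too, and with Xist as a covariate its change was 0.011.

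Glra3, for alpha3, was near the array median at 7.31 ± 0.0390 and 7.30 ± 0.0509 (SD, n = 3). Glrb, for the beta subunit that gephyrin binds, read 7.67, 7.55 and 7.74 at 2 months and 8.06, 7.67 and 7.73 at 8 months. Again 8 month replicate 1 was the highest: the change was 0.17 (SE 0.107) with it and 0.049 without it. The dimmer probe of Glrb, near the array median, had a change of −0.057.

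Gphn, for the scaffold gephyrin, had 4 probes that passed the filter. The brightest read 10.04, 9.89 and 9.99 at 2 months and 10.11, 10.07 and 9.93 at 8 months. The ages overlapped, with a change of 0.063 (SE 0.0666, 95% interval −0.094 to 0.22). The other probes had changes of 0.10, 0.16 and 0.012, the first of them without overlap. Nlgn2, for neuroligin 2, an adhesion protein of inhibitory synapses, read 10.12, 10.21 and 10.22, then 9.78, 10.23 and 10.23. A single sample, 8 month replicate 1, lay below the others. The change was −0.11 (SE 0.120) with it and 0.041 without it.

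**Figure D3:**
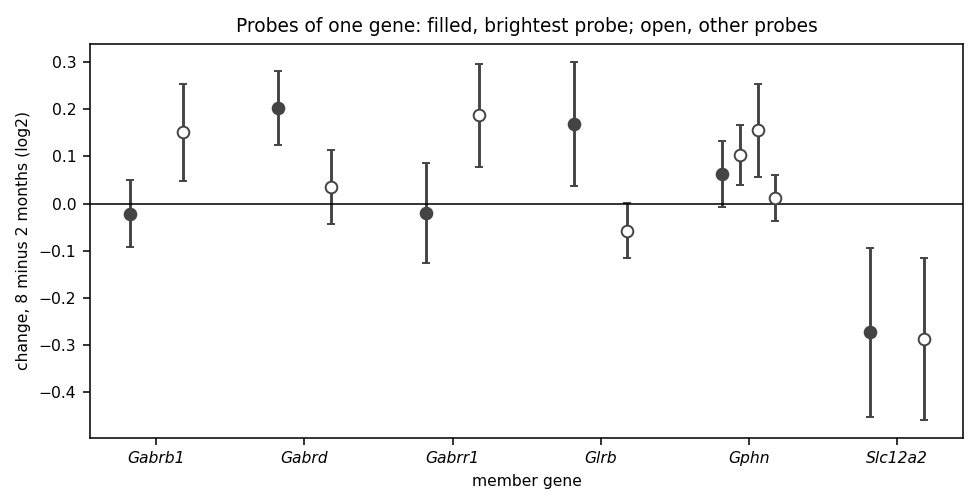
Change of each probe that passed the filter, 8 minus 2 months on the log2 scale (vertical axis), for the 6 members with more than 1 such probe; bars are standard errors from the SDs of 3 samples at each age. The brightest probe is filled: both Slc12a2 probes lie below 0, while the probes of Gabrb1, Gabrr1 and Glrb differ in sign.

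The cotransporters had the most negative and the most positive change among tested members. Slc12a2, for the chloride importer, read 10.68, 10.92 and 10.43 at 2 months and 10.42, 10.58 and 10.21 at 8 months. The ages overlapped, with 2 month replicate 2 highest and 8 month replicate 3 lowest. The change was −0.27 (SE 0.138, 95% interval −0.60 to 0.051), with an adjusted p of 0.580 by limma. The other probe that passed the filter read 9.36, 9.59 and 9.07, then 9.12, 9.15 and 8.90. Its samples stood in nearly the same order, and the change was −0.29.

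The same 2 samples at the ends of the Slc12a2 range were the highest and the lowest of the pigment epithelium list, at 10.94 and 9.52. Without 2 month replicate 2 the change of Slc12a2 was −0.15, and leaving out 8 month replicate 3 gave −0.17. With haemoglobin as a covariate it was 0.18, of the opposite sign, and with Xist −0.047. The part of pigment epithelium in this change was not tested.

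Slc12a5, for the chloride exporter of neurons, read 8.04, 7.94 and 7.63 at 2 months and 8.19, 8.08 and 8.00 at 8 months. The 2 month replicate 3 was the lowest by far, and 2 month replicate 1 overlapped the older group. The change was 0.22 (SE 0.109, 95% interval −0.036 to 0.47), with an adjusted p of 0.574 by limma, and 0.098 without 2 month replicate 3. With haemoglobin as a covariate it was 0.38, and with Xist 0.38.

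The value of Slc12a5 minus that of Slc12a2 sets exporter against importer within a sample. Its size depends on the probes, so only its change between ages is described. In these bulk samples both transcripts need not come from the same cells. The difference therefore does not give the balance of exporter and importer in any cell. The difference was −2.64, −2.98 and −2.80 at 2 months and −2.24, −2.50 and −2.21 at 8 months. The ages did not overlap. The means were −2.81 ± 0.169 and −2.31 ± 0.160 (SD, n = 3), a change of 0.49. An exact permutation test over samples gave a two-sided p of 0.1, the smallest that 3 samples against 3 allow, so the design could not reach 0.05. The change was 0.41 to 0.58 when any 1 sample was left out and 0.20 with haemoglobin as a covariate.

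**Figure D4:**
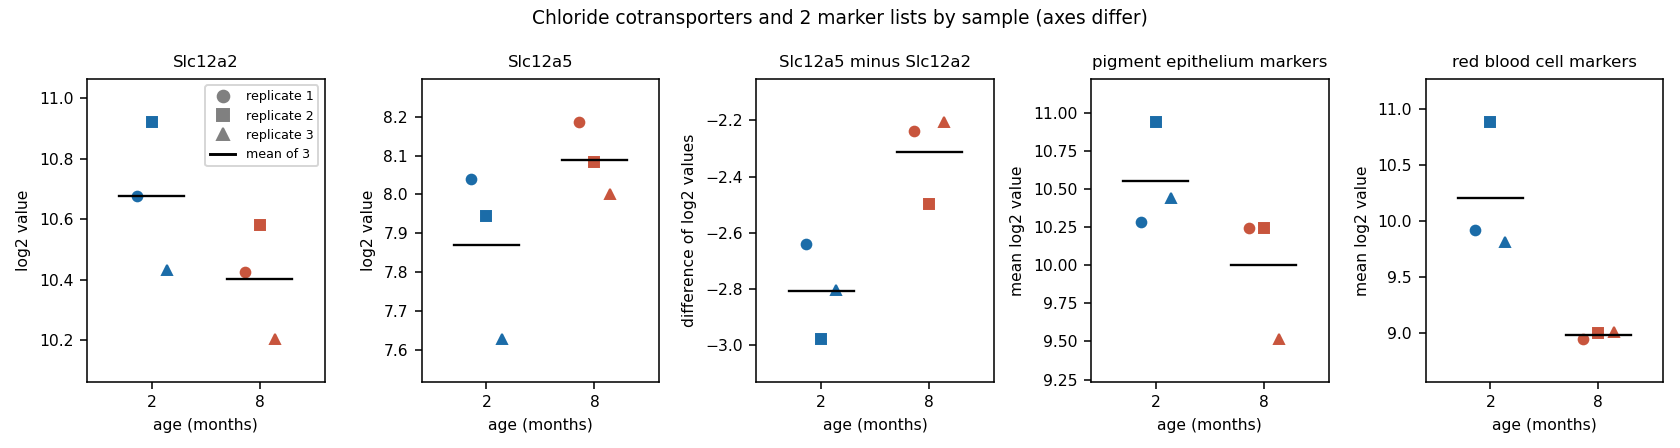
Slc12a2, Slc12a5, their difference, and the means of the pigment epithelium and red blood cell markers in each sample (vertical axes in log2) against age in months, with 1 symbol per replicate and a line at the mean of 3. The difference separates the ages, from −2.98 to −2.64 against −2.50 to −2.21, and both marker lists are highest in 2 month replicate 2.

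Partner genes were grouped in 4 lists, whose counts at an unadjusted p below 0.05 can be set against 614 higher and 643 lower of all 12046 tested genes (10.4% in either direction). For chloride transport and its control, 28 of 34 listed genes were tested, 0 passed as higher and 1 as lower (limma; 0 higher and 3 lower at an unadjusted p below 0.05), and the median change was −0.019. The called gene was Wnk4, a kinase that acts on chloride cotransporters, at 8.61, 8.65 and 8.71 at 2 months and 8.25, 8.28 and 8.25 at 8 months. The ages lay far apart for their spread, and Wnk4 fell by 0.40 on the log2 scale (SE 0.0486, adjusted p = 0.0472 by limma). Its dimmer probe had a change of −0.14. The call was lost when any 1 of the 6 samples was left out (adjusted p = 0.0670 to 0.195 by limma, changes −0.42 to −0.37). It was also lost with no filter (adjusted p = 0.0501), with the mean of both probes (0.0795, change −0.27), and with haemoglobin (0.528) or Xist (0.168) as a covariate, all by limma. The other tested kinases of this cascade did not pass: Wnk1, Wnk2, Stk39 and Oxsr1 had changes of 0.038, 0.11, −0.074 and 0.017. Clic4, an intracellular chloride channel protein, and Ano2, a calcium-activated chloride channel, had changes of −0.23 (SE 0.0719) and −0.22 (SE 0.0700), both without overlap and neither past the threshold.

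For transmitter synthesis, vesicle loading and uptake, 10 of 13 genes were tested and 0 passed in either direction (limma; 3 higher and 1 lower at an unadjusted p below 0.05). Gad2, which makes GABA, read 10.06, 10.23 and 10.38 at 2 months and 10.65, 10.66 and 10.87 at 8 months. The ages were clearly apart, by 0.51 on average, with an SE of 0.0964 and an adjusted p of 0.135 by limma. Abat, which breaks GABA down, and Slc32a1, which loads GABA and glycine into vesicles, had changes of 0.21 (SE 0.0501) and 0.13 (SE 0.0460), also without overlap. A further probe of Abat had a change of 0.054. Glul, for glutamine synthetase, and Slc6a9, for a glycine transporter, were lower without overlap, with changes of −0.20 (SE 0.0842) and −0.11 (SE 0.0605). The list held 5 positive and 5 negative changes with a median of −0.012. Gad1, Gad2, Slc32a1 and Slc6a9 are also among the amacrine markers above, so that mean and these genes are not independent.

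For receptor trafficking and scaffold partners, 27 of 31 genes were tested and 0 passed (limma; 5 higher and 0 lower at an unadjusted p below 0.05), with a median of 0.027. Dynll1, a dynein light chain that binds gephyrin, read 11.38, 11.60 and 11.44 at 2 months and 11.82, 11.80 and 11.83 at 8 months. The older samples were tightly grouped above the younger ones, by 0.34 on average, with an SE of 0.0653 and an adjusted p of 0.137 by limma. Dag1, for dystroglycan, and Pfn2, for profilin 2, had changes of 0.26 (SE 0.0930) and 0.32 (SE 0.118), but another probe of each had a change of −0.0023 and 0.031.

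For GABA-B receptor partners and potassium channel effectors, 12 of 15 genes were tested and 0 passed (limma; 0 higher and 1 lower at an unadjusted p below 0.05), with a median of 0.016. Gnai1, Gnao1 and Gnai2, alpha subunits of inhibitory G proteins, had changes of −0.20 with an SE of 0.0832, −0.15 with an SE of 0.0956, and 0.16 with an SE of 0.113. Second probes of Gnao1 and Gnai2 had changes of the opposite sign, 0.13 and −0.052.

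**Figure D5:**
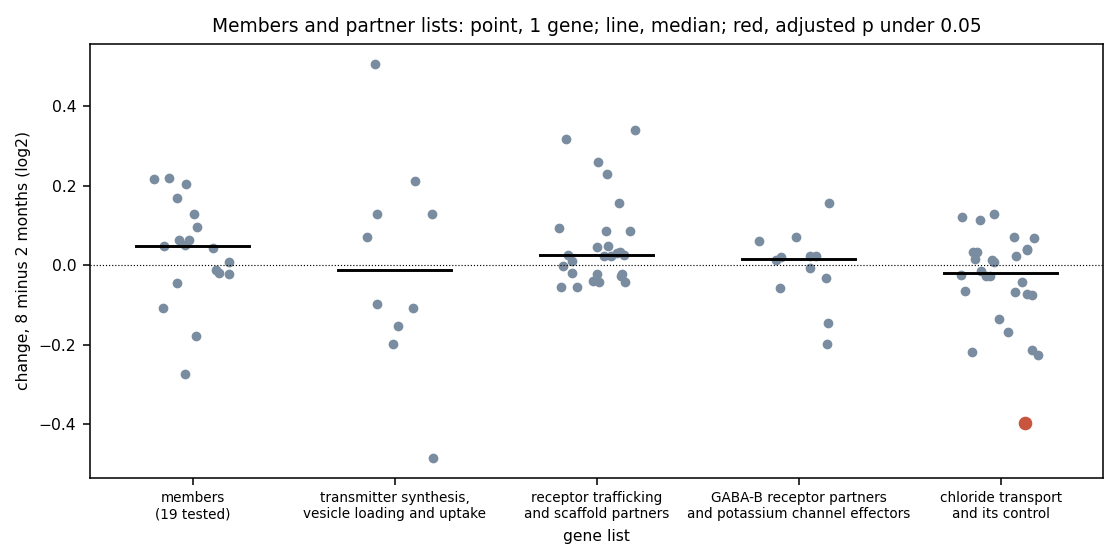
Change of each tested gene, 8 minus 2 months on the log2 scale (vertical axis), for the members and 4 lists of partner genes; points are genes, lines medians, and red marks an adjusted p below 0.05. Wnk4, at −0.40, is the 1 gene marked.

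Promoters of members were set beside Egr3 and Egr4, transcription factors that rose from 7.35 to 9.99 and from 7.24 to 9.51 on average (adjusted p = 0.00129 and 0.0169 by limma). As background, Egr4 has been reported to act on the promoter of Slc12a5 and Egr3 on that of Gabra4. RefSeq windows of build GRCm38.p6, 250 bases before to 50 after an annotated start, were used for 24 members, 29 windows in all. They were matched by symbol, except that the chromosome holding Slc12a2 was left out of the member windows. Slc12a2 was therefore not searched, and no window was matched for Gabrd or Glra1. The count over all windows left no chromosome out. The Egr core motif was searched on both strands as GCGNGGGCG. It was in 4 of the 29 member windows, those of Gabrb1 (first start), Gabrb2 (first start), Glra3 and Gphn, and in 5.55% of all 32851 windows. The motif is rich in G and C. The matching windows held 56% to 77% of these bases, against a median of 52.7% over all windows, while Gabbr2 at 80.3% had no match. Whether the motif is more frequent among members was not tested. The windows of Slc12a5 and Gabra4 do not hold the motif, which says nothing about binding of either factor.

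Shown are the 250 bases before both starts of Slc12a5 and before that of Gabra4, for this background, and those before Glra3 as a window with a match, in capitals. They lie at chr2:164960596-164960845 and chr2:164967738-164967987 (plus strand), chr5:71658309-71658558 (minus strand) and chr8:55940168-55940417 (plus strand), each printed 5′ to 3′ along its gene.
Slc12a5 first start: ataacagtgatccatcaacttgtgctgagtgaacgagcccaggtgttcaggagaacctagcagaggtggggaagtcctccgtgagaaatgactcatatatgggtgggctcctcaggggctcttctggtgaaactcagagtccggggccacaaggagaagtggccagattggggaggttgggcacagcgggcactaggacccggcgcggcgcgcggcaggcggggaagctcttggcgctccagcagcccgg
Slc12a5 second start: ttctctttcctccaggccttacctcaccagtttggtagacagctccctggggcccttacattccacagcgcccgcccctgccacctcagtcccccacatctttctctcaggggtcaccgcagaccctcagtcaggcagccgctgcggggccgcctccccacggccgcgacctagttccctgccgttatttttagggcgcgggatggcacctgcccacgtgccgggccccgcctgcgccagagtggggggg
Gabra4: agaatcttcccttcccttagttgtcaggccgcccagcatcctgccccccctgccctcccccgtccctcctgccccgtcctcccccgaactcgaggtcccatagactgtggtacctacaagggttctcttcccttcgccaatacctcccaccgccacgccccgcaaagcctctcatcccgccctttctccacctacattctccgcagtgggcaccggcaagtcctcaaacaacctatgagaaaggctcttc
Glra3: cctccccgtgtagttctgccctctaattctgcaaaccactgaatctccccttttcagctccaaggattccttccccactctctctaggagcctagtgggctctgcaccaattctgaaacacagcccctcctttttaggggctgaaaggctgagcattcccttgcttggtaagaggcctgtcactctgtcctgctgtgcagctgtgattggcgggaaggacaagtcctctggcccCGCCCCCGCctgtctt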

How the data were processed

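Central retina RNA from 6 samples, 3 per age, was hybridised as biotinylated cRNA to Illumina arrays, per the labels' protocols. The table deposited by the authors holds log2 values, judged by their range (6.98 to 14.48); a variance-stabilising scale close to log2 cannot be told apart from it. At each rank the columns differ by at most 0.00307, so a quantile-type step had been applied; the sources used here do not give the software or the background correction. Ages and replicate numbers were read from the titles.

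Kept probes exceeded the 50th percentile of their array on 3 or more of the arrays (22458 probes). Genes were named through GEO's platform annotation, which can be old: 34885 probes had 1 symbol, 18 several and 10378 none. The kept probe with the highest mean stood for its gene. Ages were compared by limma 3.58.1 (R 4.3.3; lmFit, eBayes), adjusted by Benjamini-Hochberg over 12046 genes, after a check on simulated data. The number of arrays limits the precision.

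The members and lists were chosen with earlier results of these data known. All members are named, and of each partner list the called genes and the 3 smallest p-values; Glul, Slc6a9, Wnk1, Wnk2, Stk39, Oxsr1, Egr3 and Egr4 were added outside that rule. Alternatives were other normalizations, filters and probe rules, an intensity trend, a replicate block, haemoglobin or Xist as a covariate, and leaving out each sample.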

Additional observations from a re-analysis of the deposited data

How the results depend on the processing

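No member was called under any of 16 alternatives (limma), and 19 of 298 recomputed member changes had the opposite sign. The other normalizations among them could change little, because a quantile-type step had already been applied. With the mean of all kept probes, Gabrb1 was 0.065 and Gabrr1 0.084. With haemoglobin as a covariate, Gabrb1 was 0.052, Gabbr2 −0.013, Glra2 −0.054, Glra3 0.014, Glrb −0.041, Gphn −0.085, Slc12a2 0.18 and Gnao1 0.20. Leaving out 1 sample gave Gabrb1 −0.077 to 0.032, Gabrg1 −0.014 to 0.031, Gabrr1 −0.076 to 0.062, Glra2 −0.016 to 0.14, Glra3 −0.041 to 0.0074 and Nlgn2 −0.18 to 0.041. The members' median change, 0.048, was 0.0069 with no filter, 0.010 with haemoglobin, and 0.026 to 0.061 without 1 sample. Over all tested genes, 19 were higher and 8 lower; there were 5 and 2 with no filter, 38 and 35 with a stricter one, 44 and 48 with an intensity trend, 0 and 0 with haemoglobin (limma; 461 and 375 at an unadjusted p below 0.05), 2 and 0 with Xist (514 and 535), and 2 to 14 and 0 to 20 without 1 sample. Wnk4 was called in 5 of 16 alternatives (adjusted p 0.0277 to 0.528 over all, limma) and Gad2 in 2. For Wnk4 these were the other normalizations, which nearly repeat the main fit, a stricter filter and an intensity trend. The adjusted p of Wnk4 was 0.0277 with the stricter filter and 0.0420 with the intensity trend (limma). With the replicate number as a block there were 14 higher and 18 lower genes and 0 called members, and Wnk4 was not called (adjusted p = 0.0761, limma). Deviations of same-numbered samples correlated at 0.0239, 0.139 and 0.160, and those of differently numbered samples at −0.154 to 0.00198. Same-numbered pairs were thus above all others, and whether samples were paired was not settled. The main fit took them as unpaired. With the block, Slc12a2 had an SE of 0.0538 and an adjusted p of 0.180 (limma), the smallest of any member there. Without the block these were 0.138 and 0.580 (limma). The causes of these shifts were not tested. Signal near the array median limits Gabrb2, Gabrg1, Gabrg3, Gabbr2, Glra3 and the 6 members below the filter.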
